A study of Mus musculus with 16 samples.

Results

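The mitochondrial ribosomal protein genes were taken as every gene whose symbol in the platform annotation begins with Mrpl or Mrps followed by a digit. The array named 76 of them, and 71 were measured, that is, had a probe whose detection p-value was below 0.05 on each array in 2 or more of the 8 cell lines. These 71 genes, 46 of the large and 25 of the small subunit, stood among 9303 measured genes of 16593 named on the array. The brightest such probe represented each gene. Mrpl19, Mrpl21, Mrpl32, Mrps14 and Mrps36 were detected on 0 of the 16 arrays and are not described further.

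Mitochondria carry their own ribosome, which translates the few proteins encoded by mitochondrial DNA, all of them core parts of the respiratory chain and the ATP synthase. The ribosomal RNAs of this particle come from the mitochondrial genome, whereas every protein of it is encoded in the nucleus, made in the cytosol and imported. Some of these proteins have a counterpart in the bacterial ribosome and others occur only in mitochondria. Pluripotent cells are known for immature mitochondria and a high use of glycolysis, and mitochondrial content and respiration change as they differentiate.

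All lines were mouse embryonic stem cells (ESCs) of 129/Ola background lacking both endogenous Sox2 alleles (Sox2-/-), with a mouse Sox2 transgene repressed by doxycycline, a tet transactivator and a constitutive DsRed reporter. The S98/102 lines (3 clones, numbered 1, 2 and 4, which the sample labels call S95) and the S113 lines (2 clones, 4 and 5) carried human SOX2 with mutations that disturb its assembly with OCT4 on different DNA motifs. The TSS line (1 line) was grown without doxycycline, so that mouse Sox2 stayed on. The SWT lines (2 clones, 4 and 5) carried unmutated human SOX2. Human SOX2 was expressed from a PiggyBac vector with the CAG promoter, and these clones were single colonies picked in medium with hygromycin at 300 µg/ml and doxycycline at 1 µg/ml. Each line was hybridised to 2 Illumina bead arrays, which were averaged, so that n is the number of lines. The labels do not say whether those arrays came from separate cultures, and p-values measure only the spread between clones. All levels are normalised log2 intensities, and all differences are on that log2 scale.

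The arrays were alike in quality: 48.6 to 52.5% of probes were detected, and the 2 arrays of a line correlated with r of 0.994 to 0.998 across probes. The ESC label was checked with 8 pluripotency markers, all detected in every line. Their mean level was 10.61, 9.49 and 10.60 in S98/102 clones 1, 2 and 4, and 11.28 and 11.42 in the SWT clones. Between S98/102 and SWT, 2 of the 8 passed as lower (25%; limma, adjusted p under 0.05), against 12.1% of all genes. A difference below 0 was seen in 7 of the 8. Of 10 extraembryonic endoderm markers, 8 passed as higher in S98/102, against 11% of all genes, and all 10 had a difference above 0. The mean level of the 10 was 9.42, 10.82 and 9.62 in clones 1, 2 and 4, against 6.01 and 6.82 in the SWT clones. Of 8 trophectoderm markers 6 were measured, 3 passed as higher and 5 had a difference above 0. The mean level of the 6 was 7.81, 7.98 and 8.67 in S98/102, against 6.23 and 6.39 in SWT. Of these 6, 1 went the other way without passing. It was Tfap2c, at 10.37, 9.03 and 11.16 in S98/102 clones 1, 2 and 4, against 11.01 and 11.37 in SWT. Of 8 embryonic fibroblast markers 4 were measured and 0 passed, with mean levels of 4.97 to 5.57 in S98/102 and 4.95 to 5.16 in SWT. The S113 clones 4 and 5 had mean levels of 11.45 and 11.38 for the pluripotency, 7.19 and 8.76 for the endoderm and 7.14 and 7.32 for the trophectoderm markers, and the TSS line 11.67, 6.77 and 7.54. S98/102 clone 2 had the lowest pluripotency and the highest endoderm marker level. The S98/102 clones thus differed from SWT in several of these markers too, and in bulk RNA fewer cells of a type and less RNA per cell cannot be told apart. The part of these markers in the results below was not tested.

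Promoters are shown for 3 of the members that fell in S98/102, because motifs of factors known for nuclear genes of mitochondrial proteins were searched there. RefSeq sequences (GRCm38.p6) were found for 63 of the 71 members, as 300-base windows running from 250 bases before to 50 after the start. The stretches below run 5′ to 3′ from 100 bases before to 30 after the start of each gene, and capitals mark matches to GGGCGG, the SP/KLF box.
Mrps5, chr2:127587326-127587455, plus strand: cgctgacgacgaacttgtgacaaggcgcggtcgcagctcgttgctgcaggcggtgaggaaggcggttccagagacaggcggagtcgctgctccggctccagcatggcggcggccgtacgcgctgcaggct
Mrpl42, chr10:95501920-95502049, minus strand: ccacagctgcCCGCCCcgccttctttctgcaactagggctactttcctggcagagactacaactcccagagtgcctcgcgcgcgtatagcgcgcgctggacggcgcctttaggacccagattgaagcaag
Mrps24, chr11:5707672-5707801, minus strand: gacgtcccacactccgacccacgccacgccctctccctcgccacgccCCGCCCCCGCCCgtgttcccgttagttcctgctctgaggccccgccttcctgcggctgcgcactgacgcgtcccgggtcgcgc
The Mrps5 stretch held 0 matches to any of the 4 motifs, and its window had 1 SP/KLF box further upstream.

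The other motifs were GCGCATGCG for NRF1, CCGGAAG for the ETS factors that include GABPA, and AAGATGGCG for YY1, each read on both strands. Among the 8 members that passed between S98/102 and SWT, Mrpl9 held NRF1 and Mrpl42 and Mrps24 held YY1, shown here in 30 bases with the match in capitals.
Mrpl9, NRF1 match starting 28 bases before the start, chr3:94443298-94443327, plus strand: aggcgcagctGCGCATGCGCggggtccttc
Mrpl42, YY1 match starting 28 bases into the transcript, chr10:95501903-95501932, minus strand: agattgaagcAAGATGGCGagcgcgcggtg
Mrps24, YY1 match starting 37 bases into the transcript, chr11:5707652-5707681, minus strand: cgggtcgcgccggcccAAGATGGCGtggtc
In Mrpl9 the capitals span 2 overlapping matches on opposite strands. The Mrpl9 start used here is that of its promoter window. The span of the gene begins further upstream, at 94443154, so these letters lie inside the annotated gene. Over all members with a sequence, the ETS letters stood in 24 of 63 windows (38.1%), against 18.4% of the 7590 windows of measured genes. The YY1 letters stood in 8 (12.7%), against 3.25%, and the NRF1 letters in 6 (9.52%), against 3.74%. The SP/KLF box stood in 31 (49.2%), against 64.9%. Of the 7 passing members with a sequence, 0 held the ETS letters. A match is a description of these letters and not a binding site.

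The first comparison asks how the mitoribosome genes differ when ESCs live on S98/102 rather than on unmutated SOX2. Between S98/102 and SWT, 8 of the 71 members passed (11.3%; limma, Benjamini-Hochberg adjusted p under 0.05 over all 9303 genes), of which 7 fell and 1 rose. Over all genes 23.1% passed, 12.1% lower and 11% higher. The share of members that passed lay under that background, and 7 of the 8 were lower. The median difference of the members was -0.26, against -0.013 over all genes. The interquartile range of the members ran from -0.41 to 0.074, and the median size of a difference was 0.32, against 0.40 over all genes. Of the 71 members, 45 had a difference below 0, against 51% of all genes. In 34 members (47.9%) all S98/102 clones lay below both SWT clones, against 31.4% of all genes, and in 10 (14.1%) they all lay above, against 28.5%. At an unadjusted p under 0.05, 20 members were lower and 3 higher, against 21.3% and 19.2% of all genes.

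**Figure D1:**
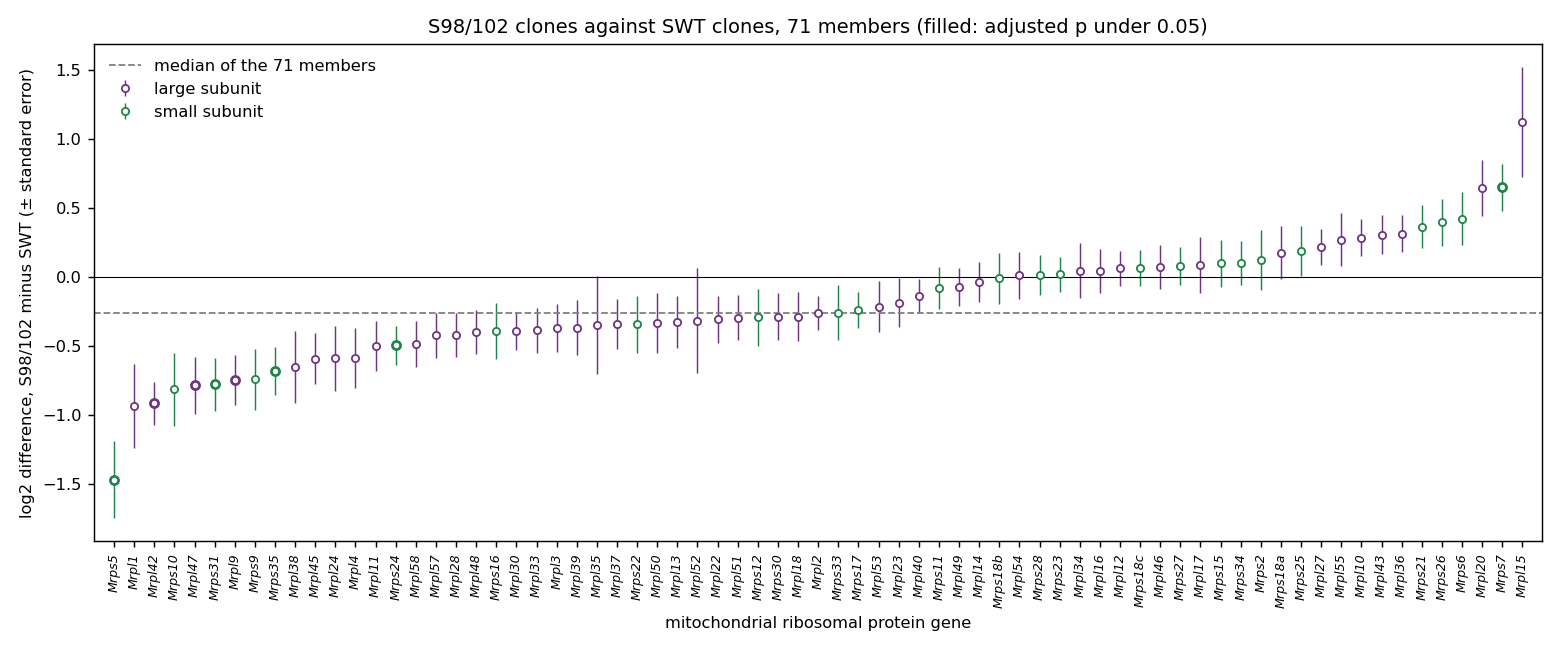
Difference between S98/102 and SWT clones (log2, vertical axis, bars are the standard error of the fit; 3 and 2 clones) for each of the 71 members, ordered from lowest to highest and coloured by subunit; filled points passed the test. Most points lie below 0, with a median of -0.26 (dashed line), and Mrps5 at -1.47 and Mrpl15 at 1.12 mark the ends.

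Of the small subunit, 4 members fell. Mrps5, the counterpart of the bacterial ribosomal protein of the same number, stood at 9.22, 8.26 and 8.92 in S98/102 clones 1, 2 and 4, at 10.11 and 10.21 in S113 clones 4 and 5, at 9.80 in TSS, and at 10.16 and 10.39 in SWT clones 4 and 5. All S98/102 clones lay below every other line. It fell by 1.47 ± 0.28 (SE; 2.78-fold lower, adjusted p = 0.0158), the largest fall among the members, and its second probe also passed at -1.23 (probes of a gene were compared in a fit over all detected probes).

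Mrps31, a protein found only in the mitochondrial small subunit, stood at 11.73, 11.16 and 11.56 in S98/102, at 12.30 and 12.34 in S113, at 12.12 in TSS, and at 12.28 and 12.25 in SWT. The 4 S113 and SWT clones lay within a narrow band and the S98/102 clones well below it. Mrps31 fell by 0.78 ± 0.19 (1.72-fold lower, adjusted p = 0.0305). Its 3 detected probes passed in the same direction, with the other probes at -1.01 and -1.28. The 47 measured genes within 5 Mb of it on chromosome 8 had a median difference of -0.29, so that part of its neighbourhood was lower too.

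Mrps35, also specific to the mitochondrial small subunit, stood at 9.06, 8.71 and 9.12 in S98/102, at 9.57 and 9.34 in S113, at 9.43 in TSS, and at 9.61 and 9.69 in SWT. It fell by 0.69 ± 0.17 (adjusted p = 0.0340), and the 22 genes within 5 Mb of it on chromosome 6 had a median of -0.40. Mrps24, a counterpart of a bacterial small-subunit protein that lines the entry path of the mRNA, stood at 12.34, 12.08 and 12.09 in S98/102, at 12.66 and 12.60 in S113, at 12.36 in TSS, and at 12.70 and 12.64 in SWT. Its fall of 0.50 ± 0.14 was the smallest that passed (adjusted p = 0.0466). In both genes the S98/102 clones lay below all other lines, and for Mrps24 clone 1 nearly met the TSS line.

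Of the large subunit, 3 members fell. Mrpl42, found only in mitochondria, stood at 11.09, 10.77 and 10.76 in S98/102, at 11.41 and 11.46 in S113, at 11.27 in TSS, and at 11.74 and 11.84 in SWT. It fell by 0.92 ± 0.15 (1.89-fold lower) with the smallest adjusted p of the members, 0.0116. Mrpl47, the counterpart of a bacterial protein at the mouth of the exit tunnel, stood at 10.50, 9.85 and 10.30 in S98/102, at 10.94 and 10.85 in S113, at 10.57 in TSS, and at 11.00 in both SWT clones. It fell by 0.79 ± 0.21 (adjusted p = 0.0370), while its dimmer probe missed the threshold at -0.58 (adjusted p = 0.0574). Mrpl9, the counterpart of the bacterial protein of the same number, stood at 8.56, 8.03 and 8.31 in S98/102, at 9.15 and 9.23 in S113, at 8.76 in TSS, and at 9.08 and 9.01 in SWT. It fell by 0.75 ± 0.18 (adjusted p = 0.0300). In these 3 genes the S98/102 clones lay below every other line. The low neighbourhoods of Mrps31 and Mrps35 were not shared by the other members that fell. Measured genes within 5 Mb of Mrps5, Mrpl42 and Mrpl47 had medians of -0.049, -0.056 and -0.027 between S98/102 and SWT. Those near Mrpl9 and Mrps24 had medians of 0.11 and 0.12.

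Mrps7, the counterpart of a bacterial protein of the small-subunit head, was the 1 member that rose. It stood at 10.72, 11.01 and 11.09 in S98/102, at 10.68 and 10.67 in S113, at 10.54 in TSS, and at 10.14 and 10.44 in SWT. It rose by 0.65 ± 0.17 (1.57-fold higher, adjusted p = 0.0384). This rise was seen by 1 of its 2 detected probes only: the dimmer probe gave -0.022 (adjusted p = 0.93), and with the mean of both the difference was 0.31 (adjusted p = 0.17).

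**Figure D2:**
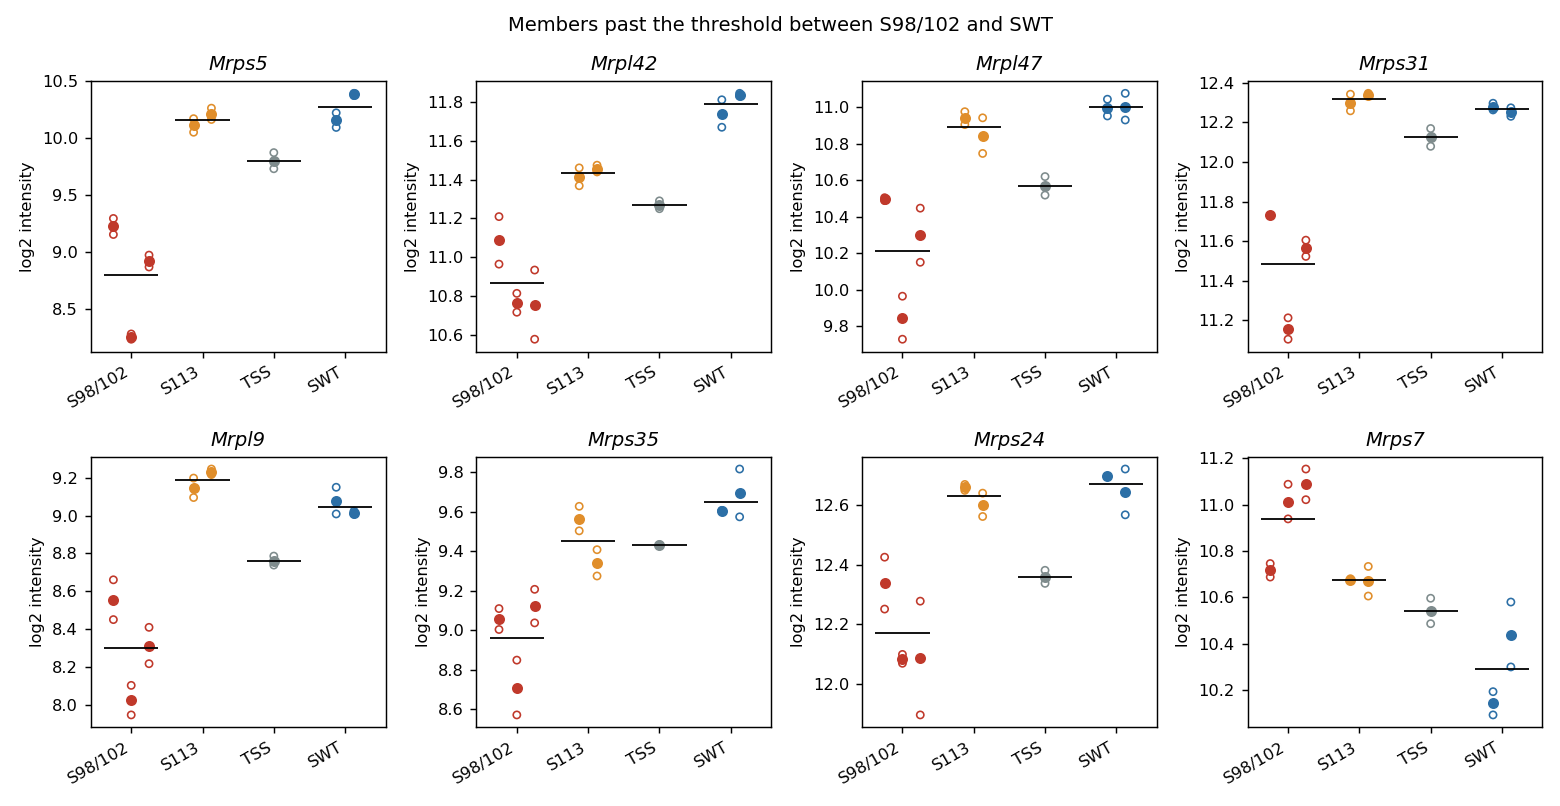
Normalised log2 intensity (vertical axes, which differ between panels and do not start at 0) of the 8 members that passed between S98/102 and SWT; filled points are lines, open circles their 2 arrays and bars the group means. In the 7 members that fell the S98/102 clones lie below all others, with the TSS line between them and SWT. Picking these members by their S98/102 and SWT levels favoured that order. Mrps7 is higher in S98/102 with S113 between.

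In each of the 7 members that fell, the TSS line lay between the S98/102 and the SWT clones. The 7 were picked by their S98/102 and SWT levels, so the choice itself favoured a TSS level between them. Over all 71 members the TSS line lay below both SWT clones in 39 (54.9%), against 40.3% of all genes. In 6 of the 7 that fell, clone 2 was the lowest S98/102 clone. Just outside the threshold were Mrps9 (-0.75, adjusted p = 0.0511), Mrpl45 (-0.60, 0.0580), Mrpl20 (0.64, 0.0619), Mrps10 (-0.82, 0.0645) and Mrpl1 (-0.94, 0.0652). Mrpl45, known as the subunit that faces the inner membrane near the tunnel exit, was detected on 3 of the 6 S98/102 arrays and on all 4 SWT arrays. Mrpl48 did not pass with its brightest probe (-0.40, adjusted p = 0.11), but its other probes gave -0.66 (0.0395) and -0.53 (0.0727).

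By subunit, the large-subunit members had a median difference of -0.30 with 3 of 46 lower and 0 higher, and the small-subunit members a median of -0.013 with 4 of 25 lower and 1 higher. The lower members were 6.52% of the large and 16% of the small subunit, against 12.1% of all genes. All S98/102 clones lay below both SWT clones in 26 of the 46 large-subunit members (56.5%) and in 8 of the 25 small-subunit members (32%). Over all genes this share was 31.4%, so the small subunit was near that background. Within the large subunit, the 27 members with a bacterial counterpart and the 19 specific to mitochondria had medians of -0.29 and -0.32. Within the small subunit, the 15 with a counterpart and the 10 specific to mitochondria had medians of -0.084 and 0.0012. The difference between subunits was not tested.

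A few members were named for a known role. Mrpl12 and Mrpl10, which form the stalk that engages translation factors, had differences of 0.060 and 0.28. Mrps12, part of the decoding centre, was at -0.30. Mrps18a and Mrps30, which carry small-subunit names but sit in the mammalian large subunit, were at 0.17 and -0.29. Mrpl58, a peptidyl-tRNA hydrolase built into the large subunit, was at -0.49 (adjusted p = 0.0734), and Dap3, a GTP-binding small-subunit protein whose symbol keeps it out of the 71, at -0.25 (adjusted p = 0.20). Over the 4 subunits with such other symbols (Chchd1, Dap3, Gadd45gip1 and Ptcd3), 0 passed and the median was -0.15.

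The members differed in how much they varied from line to line. The median SD over the 8 lines was 0.24 for members and 0.31 for all genes. Mrps18c (SD 0.0773), Mrpl49 (0.0863) and Mrpl40 (0.0904) were the steadiest, with S98/102 minus SWT differences of 0.060, -0.073 and -0.14. Mrps5 (0.757), Mrpl15 (0.712) and Mrpl1 (0.544) varied most. Mrpl15, the counterpart of a bacterial large-subunit protein, stood at 6.76, 6.01 and 6.95 in S98/102, at 5.78 and 5.64 in S113, at 6.84 in TSS, and at 4.87 and 6.04 in SWT. Its SWT clones stood further apart than its S98/102 clones, the groups overlapped, and the difference of 1.12 ± 0.40 did not pass (adjusted p = 0.0834). Mrpl1, which forms the mobile stalk beside the exit site, stood at 10.54, 9.59 and 10.52 in S98/102, at 11.25 and 10.98 in S113, at 10.75 in TSS, and at 11.09 and 11.21 in SWT. Clone 2 was far below clones 1 and 4, which were themselves below all other lines.

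The S98/102 clones differed among themselves in the members. Relative to the SWT mean, the median of the members was -0.081 in clone 1, -0.29 in clone 2 and -0.15 in clone 4. Clone 2 was below clone 1 in 58 of 71 members and below clone 4 in 56 of 71, with medians of -0.25 and -0.22, whereas 53.4% and 53.7% of all genes were lower there. Clones 1 and 4 differed by a median of 0.057. In the large subunit the medians were -0.12, -0.33 and -0.21 in clones 1, 2 and 4, and in the small subunit 0.032 and -0.29 in clones 1 and 2 and essentially 0 in clone 4. Clone 2 also stood apart in the pluripotency and endoderm markers given above, but not in the trophectoderm markers, which were highest in clone 4.

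**Figure D3:**
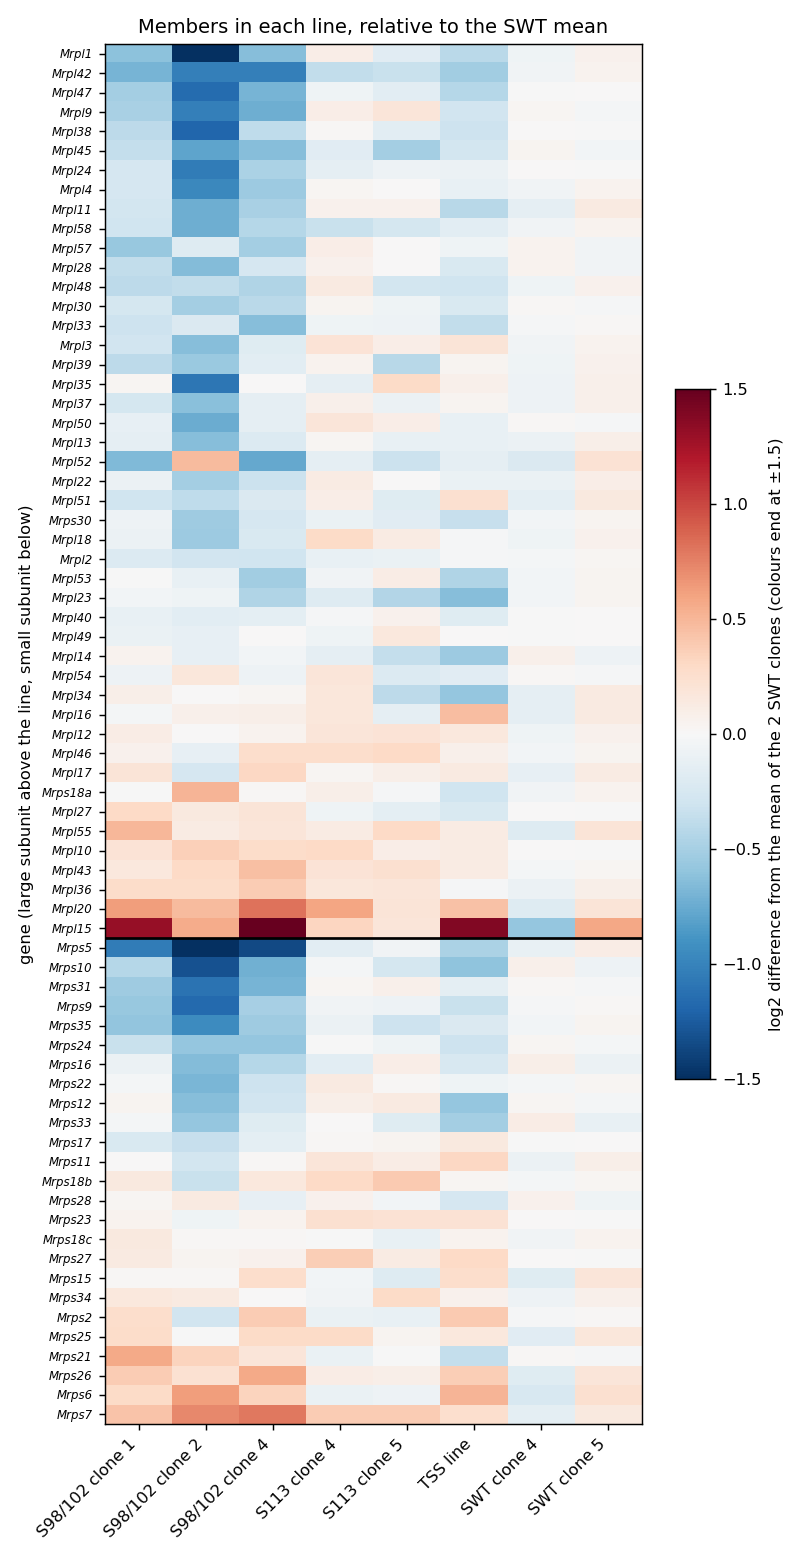
Level of each of the 71 members (rows, large subunit above the line and small subunit below) in each of the 8 lines (columns), as log2 difference from the mean of the 2 SWT clones; blue is lower and red higher. The S98/102 columns are mostly blue, deepest in clone 2, and the S113 columns are pale.

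3 members lie on chromosome 14 and 2 on chromosome 8, where some clones differed from the others over many genes. Mrpl52, found only in mitochondria, stood at 9.98 and 9.87 in S98/102 clones 1 and 4 and at 11.11 in clone 2, against 10.43 and 10.85 in the SWT clones. The 79 measured genes within 5 Mb of Mrpl52 had a median of -0.60 in clone 1, -0.030 in clone 2 and -0.61 in clone 4 relative to SWT. Mrpl57 stood at 4.62 and 4.68 in clones 1 and 4 and at 5.01 in clone 2, against 5.25 and 5.14 in SWT, and was detected on 3 of the 6 S98/102 arrays and on all 4 SWT arrays. In both genes clones 1 and 4 stood below clone 2 and below SWT. Mrps16, elsewhere on the same chromosome, showed another order, with 10.12, 9.55 and 9.78 in clones 1, 2 and 4, and its 25 neighbours had medians of -0.10, 0.15 and -0.043. On chromosome 8, Mrpl34 stood at 10.75 and 10.19 in S113 clones 4 and 5, against 10.44 and 10.72 in SWT, and its 75 neighbours had a median of -0.39 in S113 clone 5 and of 0.017 in S113 clone 4. Mrps31, on the same chromosome, did not share this: its S113 clones stood at 12.30 and 12.34. Fitted without all genes of chromosomes 8 and 14, a check chosen after seeing the data, 7 members were lower and 1 higher between S98/102 and SWT. Of these, 7 had passed before, Mrps31 being left out with its chromosome, and Mrps9 was added.

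The counts between S98/102 and SWT rested on the few clones. Without SWT clone 4 or without SWT clone 5, 0 members passed, while 2.76% and 2.90% of all genes did. Leaving out S98/102 clone 4, or either S113 clone, left 2 falls and 0 rises (2.82% of members), while 11.2% of all genes passed without S98/102 clone 4 and 15.5% without either S113 clone. Leaving out S98/102 clone 2 gave 13 falls and 3 rises (22.5% of members), while 34.2% of all genes passed. The counts thus moved with those of the whole array. Mrps5 and Mrpl42 passed in 17 of the 19 alternative analyses, missing only without one of the SWT clones, and Mrps7 in 11.

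The second comparison asks whether the 2 mutants differ. Between S98/102 and S113, 3 members fell and 0 rose, while 9.26% of all genes passed, 5.08% lower and 4.17% higher. The median of the members was -0.21, against -0.023 over all genes, and 49 of 71 were below 0, against 51.8% of all genes. Mrps5 fell by 1.36 (adjusted p = 0.0356), Mrpl9 by 0.89 (0.0351) and Mrps31 by 0.84 (0.0440), and for each the clone levels given above do not overlap. Picking them by these levels favoured that order. All S98/102 clones lay below both S113 clones in 35 of the 71 members (49.3%), against 28.8% of all genes. In the same comparison 3 of 10 endoderm markers passed as higher, with a list median of 1.95 and all 10 differences above 0. Of the 8 pluripotency markers 1 passed as lower, with a median of -1.12 and all 8 differences below 0. Their part in the members' values was not tested. Mrpl42 was next at -0.57 (adjusted p = 0.0660), its S113 clones standing between S98/102 and SWT. Without S98/102 clone 4, or without any 1 of the S113 or SWT clones, 0 members passed. Over all genes, 1.14% passed without S98/102 clone 4, 0.107% and 0.623% without S113 clones 4 and 5, and 2.62% without either SWT clone, so that 0 of 71 was near the background. Without S98/102 clone 2, 7 were lower (9.86%), against 19.0% of all genes.

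Between S113 and SWT, 0 members passed and 0 reached an unadjusted p under 0.05. Over all 9303 genes 0 passed and 863 (9.28%) reached an unadjusted p under 0.05. The median difference of the members was 0.015, and the median size of a difference was 0.11, against 0.19 over all genes. Limma on single arrays with the line as a random block passed 0 members and 2.34% of all genes. The main fit pooled the spread of all groups. The median SD of a member between clones was 0.072 in S113 and 0.076 in SWT, but 0.207 in the other mutant. Without clone 2 of that other mutant, 0 members and 1.58% of all genes passed between S113 and SWT. That 0 members passed therefore does not show that S113 and SWT were alike. The smallest p-values among the members were those of Mrpl42 (-0.35, adjusted p = 0.59), Mrps7 (0.38, 0.60), Mrpl20 (0.39, 0.65) and Mrps18b (0.35, 0.66). Mrps18b stood at 11.06 and 11.15 in S113, against 10.72 and 10.78 in SWT, groups that do not overlap. Such an order was common: both S113 clones lay above both SWT clones in 17 members (23.9%), against 26.3% of all genes. Comparisons with SWT share the same 2 SWT clones.

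Between the TSS line and SWT, with 1 line on the TSS side, 0 members and 0 of all genes passed, and 914 genes (9.82%) reached an unadjusted p under 0.05. Of the members, 3 were lower and 1 higher at that level. The TSS line differs from SWT in the Sox2 it expresses, in doxycycline and in the selected human SOX2 construct. The SWT clones were also picked as single colonies in hygromycin, neither of which is stated for the TSS line. These differences cannot be told apart here. The lone TSS line was assumed to vary like the other groups. Mrpl15 was at 1.39 (adjusted p = 0.48), Mrpl23 at -0.64 (0.48), Mrpl14 at -0.54 (0.47) and Mrpl42 at -0.52 (0.50). The median of the members was -0.11 while that of all genes was near 0. With a median shift as the scaling it turned to 0.027, below the 0.15 of all genes.

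Neighbouring gene groups gave a scale for these values. The 52 measured cytosolic ribosomal protein genes had a median of -0.031 between S98/102 and SWT, with 1 lower and 1 higher. The 73 genes of the respiratory chain and ATP synthase, whose mitochondrially encoded partners the mitoribosome makes, had a median of -0.19, with 4 lower and 2 higher. Of these 73, 56 (76.7%) had a difference below 0, against 63.4% of the members. All S98/102 clones lay below both SWT clones in 45.2% of them, against 47.9% of the members, so a shift downwards was not particular to the members. Relative to SWT, the respiratory chain genes had medians of -0.067, -0.28 and -0.28 in S98/102 clones 1, 2 and 4, and -0.31 in TSS. The differences between these groups and the members were not tested.

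**Figure D4:**
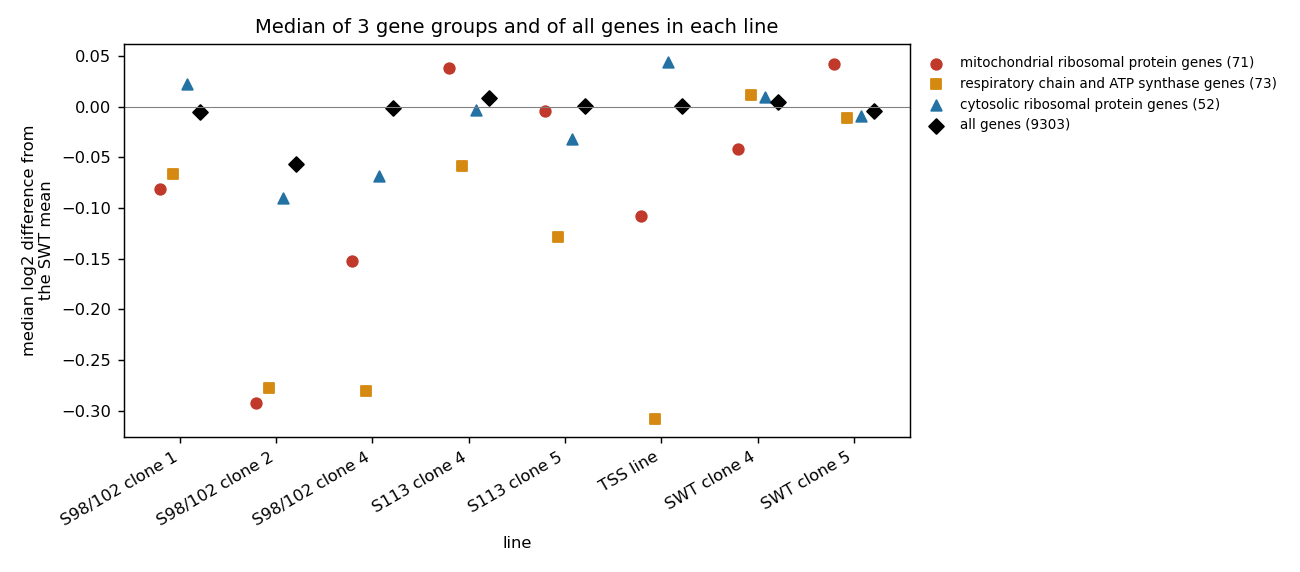
Median log2 difference from the SWT mean (vertical axis) of the 71 members, of the respiratory chain genes, of the cytosolic ribosomal protein genes and of all genes in each of the 8 lines. The members stand at -0.081, -0.29 and -0.15 in S98/102 clones 1, 2 and 4 and near 0 in both S113 clones, and all genes stay near 0 except for a small shift in S98/102 clone 2.

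Other genes of mitochondrial gene expression were read from fixed lists. Of 21 factors of mitoribosome assembly and rRNA modification, 3 fell between S98/102 and SWT and 0 rose (14.3%, under the 23.1% of all genes), with a list median of -0.18. These were Mrm1 and Mrm3, methyltransferases of the large mitochondrial rRNA (-0.89, adjusted p = 0.0336, and -0.46, 0.0467), and Rpusd4, a pseudouridine synthase of the same RNA (-0.70, 0.0255). Mrm3 stood at 6.86, 6.84 and 6.84 in S98/102, at 7.74 and 7.71 in S113, at 7.59 in TSS, and at 7.21 and 7.40 in SWT. Its S113 clones were the highest, and the difference between S98/102 and S113 was -0.87 (adjusted p = 0.0173).

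Of 14 mitochondrial translation factors 0 passed, against the same 23.1% of all genes. The nearest were the elongation factor Tsfm (-0.65, adjusted p = 0.0507) and the ribosome recycling factor Mrrf (-0.79, 0.0654). Of 15 genes for charging mitochondrial tRNAs 3 passed (20%), near that background: Iars2 (-0.57, 0.0349) and Qrsl1 (-1.02, 0.0454) fell and Wars2 rose (0.96, 0.0379). The first and last of these are the isoleucyl and tryptophanyl synthetases, and Qrsl1 is a subunit of the amidotransferase for glutaminyl-tRNA.

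Of 16 genes of mitochondrial transcription and RNA processing 2 passed (12.5%): the elongation factor Tefm fell (-1.08, adjusted p = 0.0219) and Fastkd3 rose (0.44, 0.0449). Of 25 import and folding genes, 3 rose and 2 fell (20%, near the 23.1% of all genes). Timm21 and Timm50, subunits of the translocase that takes proteins across the inner membrane, went opposite ways at 1.29 (0.00807) and -0.67 (0.0413). Tomm22, of the outer-membrane translocase, was at 0.53 (0.0435), Grpel1, the exchange factor of the matrix chaperone, at 0.53 (0.0361), and Dnajc19, an inner-membrane cochaperone, at -0.52 (0.0486).

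Of 6 measured regulators of nuclear genes for mitochondrial proteins, 2 fell and 1 rose (50%, over a list of few genes). Ppargc1b, a coactivator of such genes, stood at 5.82, 5.68 and 5.89 in S98/102, at 6.51 and 6.39 in S113, at 5.85 in TSS, and at 7.52 and 6.88 in SWT, a fall of 1.40 between S98/102 and SWT (adjusted p = 0.00837). The SWT clones were the highest of all lines and the TSS line was as low as S98/102. Gabpb1, the partner subunit of the ETS factor GABPA, fell by 0.95 (0.0269), with 7.98, 7.35 and 7.93 in S98/102, 7.97 and 7.76 in S113, 7.91 in TSS, and 8.66 and 8.75 in SWT. Every line other than SWT thus stood below both SWT clones, with S98/102 clone 2 the lowest at 7.35. The difference of Gabpb1 between S113 and SWT nevertheless did not pass (-0.84, adjusted p = 0.35). Esrra, a nuclear receptor that acts with such coactivators, rose by 0.64 (0.0324). Nrf1, whose letters were searched above, was at 0.36 (0.0777).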

How the data were processed

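Total RNA of 8 mouse ESC lines was labelled and hybridised to 16 Illumina bead arrays, 2 per line. The authors deposited mean bead intensity per probe, not normalised, made with BeadStudio 3.2, together with a detection p-value of each probe on each array. They also deposited a table of log2 values, quantile normalised (RMA and lumi are named in the submitters' processing notes, with no role), used here as an alternative; its offset is not given in the sources used here. Intensities were corrected and quantile normalised by neqc (limma 3.58.1 under R 4.3.3, offset 16), which adds a constant that understates changes of dim probes. Probes naming 1 gene in the platform annotation were kept if detected (p under 0.05) by each array of 2 or more lines, the brightest per gene, which gave 9303 genes. The 2 arrays of a line were averaged and 1 limma fit over the 8 lines (3 S98/102, 2 S113, 1 TSS, 2 SWT) gave each comparison, with Benjamini-Hochberg adjustment over all 9303 genes. The number of lines limits the precision.

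The sample labels name the S98/102 clones S95. They are called S98/102 here because the study describes colonies picked from that mutant and none from the other mutant with a like name. Coordinates are those of RefSeq on GRCm38.p6, and 1 promoter window per gene was searched. Named genes were the members that passed, the 4 smallest p-values where fewer than 4 passed, the highest and lowest levels and SDs, members with a known role, genes whose probes disagree, and up to 3 of each pathway list; Tomm22, Dnajc19, Mrrf, Nrf1, Mrps9, Mrps10, Mrpl34, Mrpl48, Mrpl52 and Mrps16 were added after their values were seen. The members and lists were chosen with earlier results of these data known. Alternatives changed the scaling, offset, detection filter, probe choice, variance model and the lines included.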

Additional observations from a re-analysis of the deposited data

Results flagged for a closer look

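For 3 members the S98/102 effect and the S113 effect differed by a test of the difference itself (limma, adjusted over all genes). The difference between S98/102 and S113 was -1.36 for Mrps5 (3 against 2 clones, adjusted p = 0.0356), -0.89 for Mrpl9 (adjusted p = 0.0351) and -0.84 for Mrps31 (adjusted p = 0.0440). In each of them all 3 S98/102 clones lay below both S113 clones. The 3 members were picked by these same levels, so the choice itself favoured that order. It was seen in 49.3% of members and 28.8% of all genes. Over all genes 9.26% passed this comparison. Across 19 alternative analyses the call was kept in 10 for Mrps5, in 11 for Mrpl9 and in 9 of 18 for Mrps31, which lies on a chromosome left out of 1 of them.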

How the results depend on the processing

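No difference that had passed changed sign in any alternative that was run. Between S98/102 and SWT, with 7 members lower and 1 higher, the deposited log2 values gave 4 lower and 0 higher, a median shift in place of quantile scaling 2 lower and 1 higher with a member median of -0.13 (all genes 0.10), the mean of a gene's probes 7 lower and 0 higher, and S98/102 clones 1 and 4 taken as 1 line 5 lower (without Mrps24 and Mrps35) and 0 higher. Single arrays with the line as a random block gave 14 lower and 2 higher, and the same with a replicate block also gave 14 lower and 2 higher (22.5% of members), while 34.9% and 34.1% of all genes passed. Leaving out 1 line gave 0 to 13 lower and 0 to 3 higher. Between S98/102 and S113, with 3 lower and 0 higher, the deposited values, the median shift and clones 1 and 4 as 1 line gave 0 lower, no detection filter 1 lower, the random block 12 lower and 1 higher (all genes 24.2%), and the replicate block 12 lower (all genes 23.1%). Leaving out 1 line gave 0 to 7 lower. The member median between S113 and SWT was 0.054 with the median shift (all genes 0.059) and -0.036 to 0.041 with 1 line left out; that between TSS and SWT was 0.027 with the median shift (all genes 0.15). The cause of these changes was not tested, apart from the fewer lines or added arrays in a fit. Same-numbered arrays did not deviate together consistently (28 pairs of lines, correlations -0.19 to 0.22, median 0.0036). The correlation was above 0.1 in 4 pairs, and whether some of the lines shared a batch was not tested. Of the other values of these counts and medians, 187 stayed the same. With 2 SWT clones, leaving 1 out leaves its group's spread to the other groups. Probes near background, Mrpl45 and Mrpl57, carry the least signal.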
